A study of Sus scrofa with 220 samples.

Results

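MYC and LIN28A are a pair of growth regulators, and they are described here across the 7 cell types of the early pig embryo. Their rows were found by gene symbol, which gave 1 Ensembl entry for MYC (ENSSSCG00000005965) and 1 for LIN28A (ENSSSCG00000003557), 2 of 22840 gene entries in all. Both passed the filter on low values, by which 14721 genes were tested.

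MYC encodes a transcription factor that pairs with MAX and raises the output of genes for ribosomes, nucleotides, energy metabolism and the cell cycle. Its paralogue MYCN binds the same partner and can replace it in many cells of the embryo. LIN28A encodes an RNA-binding protein that holds back the maturation of let-7 microRNAs, a family that represses growth genes and is known to target MYC transcripts, so that both genes are textbook regulators of proliferating and pluripotent cells.

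Single cells were picked by hand from embryos of artificially inseminated crossbred Large White and Landrace sows, and 220 of them were sequenced by Smart-seq2, which reads along polyadenylated transcripts. No embryo was treated. The morula (M) gave 47 cells, the early blastocyst (EB) gave 24 cells of the inner cell mass (ICM) and 28 of the trophectoderm (TE), the late blastocyst (LB) gave 25 of the epiblast (EPI) and 36 of the hypoblast (HYPO), and the spherical embryo (Sph) gave 48 EPI and 12 HYPO cells. TE was removed from late blastocysts by immunosurgery, EPI and HYPO of spherical embryos were separated manually, and no TE of these stages was analysed here. Embryos numbered 8 for M, 7 for ICM, 10 for TE, 4 for LB EPI, 5 for LB HYPO, 4 for Sph EPI and 3 for Sph HYPO. The embryo was read from the letters of the cell identifier, because the labels give no other field for it, and this limits every comparison between embryos. The paper inferred sex from Y chromosome expression. By its count M, ICM and Sph EPI cells were mostly male, TE and LB HYPO cells mostly female, and all Sph HYPO cells male. Sex did not enter any fit here, and its part in the differences was not tested.

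The median cell had 2006854 counts on genes, the lowest 1012604 and the highest 5696373. Because cells of 1 embryo share their source, their counts were added up within each embryo and cell type, leaving out 1 M cell without an embryo, which gave 41 sums of 1 to 19 cells, 6 of them of a single cell. Levels per embryo are log2(CPM + 1) of these sums after TMM normalization, where CPM is the count scaled to 1000000 per sum, and TPM values are the deposited ones, which allow for gene length. Of 8 TE markers, 7 had a mean over TPM 1 in 8 of the 10 TE embryos and 8 in another, but 1 in embryo E6-ER. That embryo is a single TE cell, E6-ER2, whose summed TE marker TPM was 175 against 18427 to 58458 in the other 9, and whose summed pluripotency marker TPM was 644, within the ICM range of 611 to 1428. The cell goes against its label and has no count of MYC, MYCN or LIN28A, and results of TE are given with and without it.

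MYC was almost absent from the ICM and present in nearly every LB HYPO and Sph EPI cell. It had a TPM over 1 in 21 of 47 M cells, a share of 44.7% (exact Clopper-Pearson 95% interval 30.2 to 59.9%), against 1 of 24 ICM cells (4.17%, interval 0.105 to 21.1%). The share was 67.9% in TE (19 of 28 cells, interval 47.6 to 84.1%), 64% in LB EPI (16 of 25, interval 42.5 to 82.0%) and 91.7% in LB HYPO (33 of 36, interval 77.5 to 98.2%). All 48 Sph EPI cells had MYC (interval 92.6 to 100%), as did 8 of 12 Sph HYPO cells (66.7%, interval 34.9 to 90.1%). These intervals cover counting error between cells and not the spread between embryos. Thinned to 1000000 counts per cell, MYC still had a count in 1 of 24 ICM cells and in 48 of 48 Sph EPI cells.

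**Figure D1:**
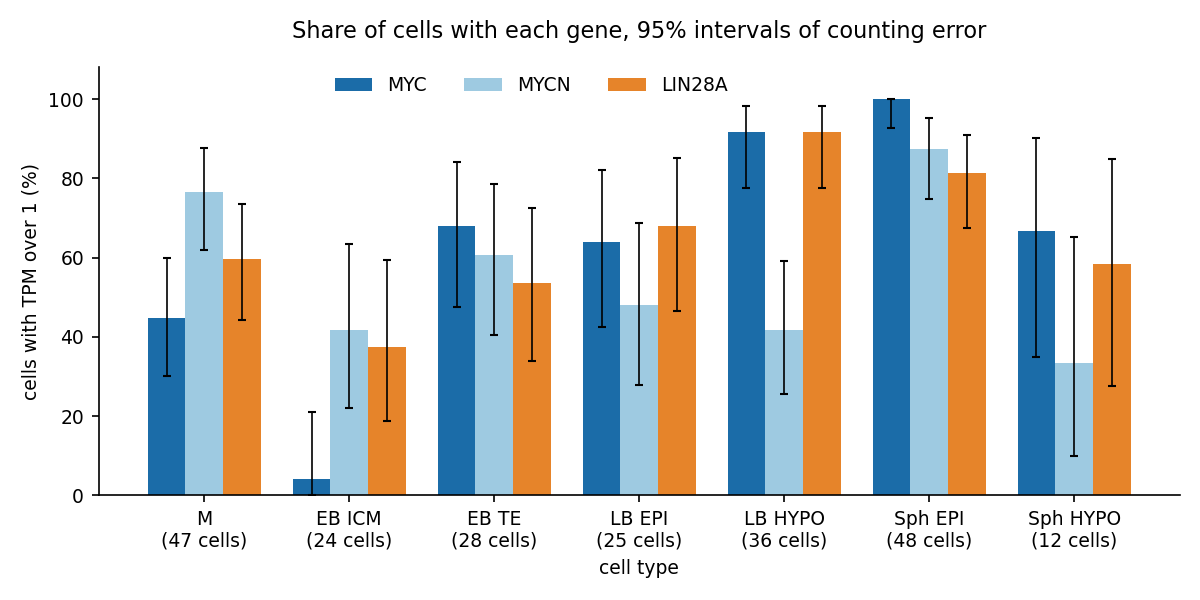
Percentage of cells with TPM over 1 (vertical axis) for MYC, MYCN and LIN28A in the 7 cell types (horizontal axis, with the number of cells). Bars start at 0 and error bars are exact Clopper-Pearson 95% intervals, which cover counting error only; MYC runs from 4.17% in EB ICM to 100% in Sph EPI.

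The amount of MYC per cell followed a similar pattern. The median MYC TPM over cells was 0 in both M and ICM and 39.6 in TE. EPI cells had a median of 27.2 at LB and 115 at Sph, and HYPO cells one of 92.7 at LB and 40.2 at Sph. The lowest Sph EPI cell had a TPM of 4.06 and the highest 466. The highest MYC value of the series, a TPM of 1217, was in an LB HYPO cell. The highest ICM cell reached 17.6.

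Within M, MYC was patchy both between and inside embryos. Mean MYC TPM over the cells of an embryo ran from 0 in embryo V, with 2 cells, to 116 in embryo Y. The per-embryo level had a lowest value of 0, a median of 5.44 and a highest of 7.33 on the log2(CPM + 1) scale, with a mean of 4.78 ± 2.16 (SD, n = 8). Every other M embryo also had cells at or under TPM 1. Embryo T had MYC over TPM 1 in 3 of 10 cells and embryo S in 3 of 8, for example.

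In ICM the level was 0 in 6 of 7 embryos and 2.20 in the other, embryo AF, with a mean of 0.31 ± 0.83 (SD, n = 7). All 40 MYC counts of the ICM, among 53980675 counts in all, lay in 2 of the 4 ICM cells of AF.

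MYC differed widely between TE embryos. The level was 6.80 in embryo AA, 6.71 in AB, 7.38 in AC, 7.71 in AD, 6.94 in AH and 8.07 in AI. It was 1.56 in AG, from 3 counts, and 0 in AE, AF and E6-ER. These 4 embryos held 5 cells between them, and of the 23 cells of the other 6 embryos 18 had MYC over TPM 1. AE, AF and AG carried the TE markers, with summed TPM of 45662, 36563 and 18427. Over the 10 TE embryos the mean was 4.52 ± 3.60 (SD, n = 10).

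LB embryos all expressed MYC. In EPI the level was 6.94 in embryo AN, 6.27 in AO, 5.32 in AP and 5.98 in AQ, a mean of 6.13 ± 0.67 (SD, n = 4). In HYPO it was 7.79 in AL, 8.43 in AM, 7.85 in AN, 7.15 in AO and 8.82 in AP, a mean of 8.01 ± 0.64 (SD, n = 5). Every HYPO embryo was above every EPI embryo at this stage. The share of all genes separated in this way was not counted, here or for the groups without overlap below.

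At the Sph stage MYC was even in EPI and uneven in HYPO. The EPI level was 7.40 in embryo C, 6.93 in D, 7.31 in E and 8.11 in F, a mean of 7.44 ± 0.50 (SD, n = 4). The HYPO level was 0 in C, 0.40 in E and 7.15 in F, a mean of 2.52 ± 4.02 (SD, n = 3). The value in E was a single count. All 8 HYPO cells of F had MYC over TPM 1, and none of the 4 HYPO cells of C and E did.

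**Figure D2:**
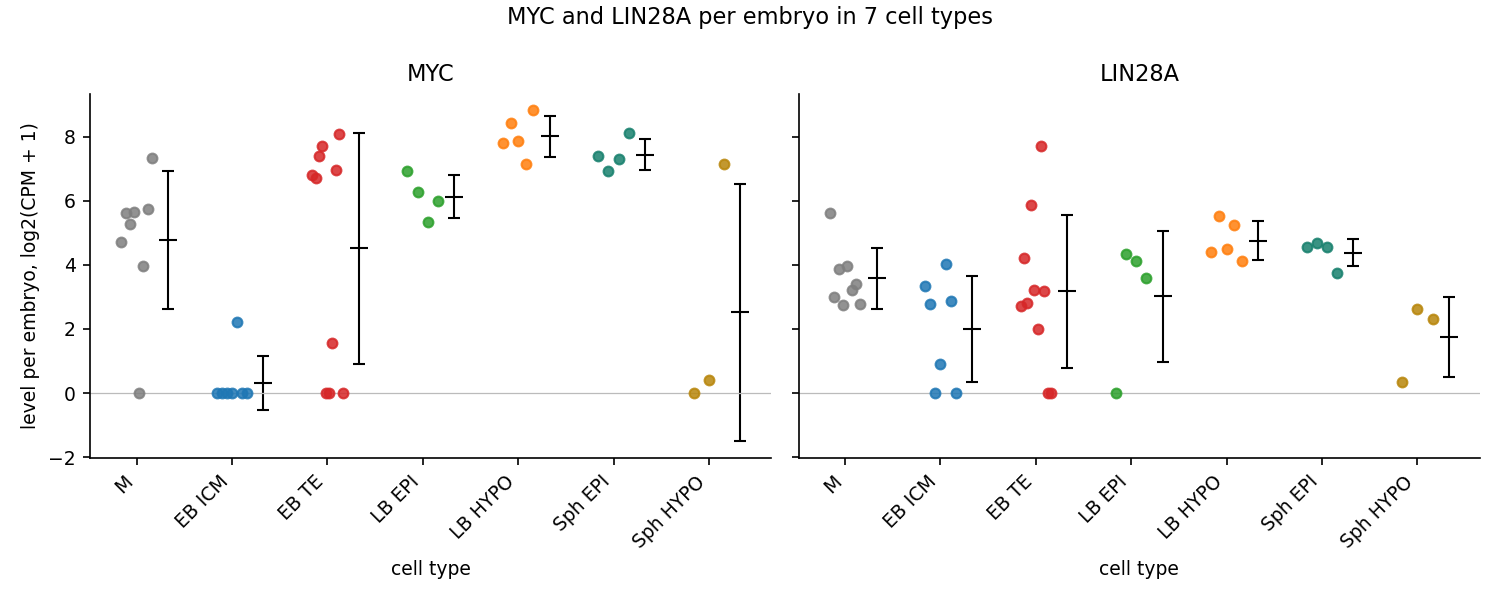
Level per embryo, log2(CPM + 1) on the vertical axis, of MYC (left) and LIN28A (right) in the 7 cell types. Each point is 1 embryo, and the black bar is the mean with 1 SD on each side; MYC in EB ICM sits at 0 in 6 of 7 embryos, and LB HYPO has the highest mean of either gene.

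By mean level, the order of MYC from low to high was ICM, Sph HYPO, TE, M, LB EPI, Sph EPI and LB HYPO. Of the 6 neighbours in that order, LB EPI and Sph EPI differed by more than the larger SD of the pair (1.31 against 0.67), and the other 5 pairs did not.

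LIN28A was found in every cell type, the ICM included. It had a TPM over 1 in 28 of 47 M cells (59.6%, interval 44.3 to 73.6%), 9 of 24 ICM cells (37.5%, interval 18.8 to 59.4%) and 15 of 28 TE cells (53.6%, interval 33.9 to 72.5%). In the later stages the share was 68% in LB EPI (17 of 25, interval 46.5 to 85.1%), 91.7% in LB HYPO (33 of 36), 81.2% in Sph EPI (39 of 48, interval 67.4 to 91.1%) and 58.3% in Sph HYPO (7 of 12, interval 27.7 to 84.8%). The median LIN28A TPM over cells was 11.4 in M, 0 in ICM and 12.2 in TE. EPI cells had a median of 28.5 at LB and 24.2 at Sph, and HYPO cells one of 60.8 at LB and 3.78 at Sph. Its highest cell, at a TPM of 572, was the single TE cell of embryo AG.

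Every M embryo had LIN28A. Its level in M had a lowest value of 2.76, a median of 3.31 and a highest of 5.61, with a mean of 3.57 ± 0.94 (SD, n = 8). Embryo V, which had no MYC count, had a LIN28A level of 3.95, and the highest level was in embryo ER, where all 4 cells had it.

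In the early blastocyst LIN28A was uneven. The ICM level ran from 0 in embryos AD and AI, each a single cell, through a median of 2.79 to 4.03 in AF, with a mean of 1.99 ± 1.66 (SD, n = 7). AF was thus the highest ICM embryo for both genes. The TE level ran from 0 in AI and E6-ER through a median of 3.0 to 7.69 in AG, with a mean of 3.17 ± 2.37 (SD, n = 10). AI had the highest MYC level of the TE embryos and no LIN28A count, while AG had the highest LIN28A level and 3 MYC counts.

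In the late blastocyst the EPI level of LIN28A was 0 in embryo AN, 4.35 in AO, 4.12 in AP and 3.58 in AQ, a mean of 3.01 ± 2.03 (SD, n = 4). AN held 2 EPI cells, both with MYC over TPM 1. The HYPO level was 4.39 in AL, 5.52 in AM, 4.49 in AN, 5.25 in AO and 4.11 in AP, a mean of 4.75 ± 0.60 (SD, n = 5). The EPI and HYPO values overlapped for LIN28A, which they did not for MYC.

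In the spherical embryo LIN28A was higher in every EPI sum than in any HYPO sum. The EPI level was 4.56 in embryo C, 4.67 in D, 4.55 in E and 3.74 in F, a mean of 4.38 ± 0.43 (SD, n = 4). The HYPO level was 0.34 in C, from 1 count, 2.62 in E and 2.29 in F, a mean of 1.75 ± 1.24 (SD, n = 3). The order of mean LIN28A levels was Sph HYPO, ICM, LB EPI, TE, M, Sph EPI and LB HYPO, and no neighbours in it differed by more than the larger SD of the pair.

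Levels of the 2 genes can be set side by side as TPM, since the deposited values treat the MYC gene model as 3.70 times as long as that of LIN28A. Mean TPM over cells was 32.1 for MYC and 34.3 for LIN28A in M, and 0.750 and 17.8 in ICM. It was 79.3 and 59.2 in TE, 42.4 and 39.5 in LB EPI, and 171 and 82.9 in LB HYPO. In Sph EPI the mean was 126 for MYC and 42.2 for LIN28A, and in Sph HYPO 61.5 and 8.88. MYC thus had the higher mean in 5 of the 7 cell types and the lower one in M and ICM.

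Cells with both genes were counted beside the share of each. Both were over TPM 1 in 13 of 47 M cells, 0 of 24 ICM cells, 11 of 28 TE cells, 8 of 25 LB EPI cells, 30 of 36 LB HYPO cells, 39 of 48 Sph EPI cells and 4 of 12 Sph HYPO cells. In Sph EPI, where every cell had MYC, the joint count is that of LIN28A alone, and in ICM 1 cell had MYC over TPM 1. Neither was found in 11 M cells, 14 ICM cells, 5 TE cells and 1 Sph HYPO cell, and every EPI cell of either stage and every LB HYPO cell had at least 1 of them. Over the 41 sums the Pearson correlation of their levels was 0.38. This describes sums that share embryos, pools and depth, and cells of 1 to 19 per sum.

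MYCN is the paralogue with a matched entry, while MYCL, MAX and LIN28B were not analysed here. MYCN was over TPM 1 in 36 of 47 M cells, 10 of 24 ICM cells, 17 of 28 TE cells, 12 of 25 LB EPI cells, 15 of 36 LB HYPO cells, 42 of 48 Sph EPI cells and 4 of 12 Sph HYPO cells. Its level was 6.67 ± 1.43 (SD, n = 8) in M, 2.89 ± 2.91 (SD, n = 7) in ICM and 4.70 ± 2.36 (SD, n = 10) in TE. It was 4.45 ± 2.58 (SD, n = 4) in LB EPI, 5.24 ± 1.38 (SD, n = 5) in LB HYPO, 6.58 ± 0.55 (SD, n = 4) in Sph EPI and 3.36 ± 2.93 (SD, n = 3) in Sph HYPO. Unlike MYC, MYCN was found in 4 of 7 ICM embryos. Its mean was highest in M, but by 0.086 over Sph EPI, beside a larger SD of 1.43.

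The share of MYC in the mean TPM of MYC and MYCN together was taken from the means of the embryos, each embryo weighing the same. By this measure MYC made up 28.9% in M, 3.86% in ICM and 64.3% in TE. The share was 61.6% in EPI and 84.1% in HYPO of the LB stage, and 65.3% and 68.6% at Sph. The Sph HYPO share rested on embryo F, with a mean MYC TPM of 92.2, against 0 in C and 0.21 in E. MYC was above MYCN in 2 of 8 M embryos, 0 of 7 ICM, 6 of 10 TE, 3 of 4 LB EPI, 5 of 5 LB HYPO, 4 of 4 Sph EPI and 1 of 3 Sph HYPO embryos. M embryo V, with no MYC count, had a MYCN mean TPM of 162, the highest of the M embryos. In LB HYPO, 18 cells had MYC without MYCN and no cell had MYCN without MYC.

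**Figure D3:**
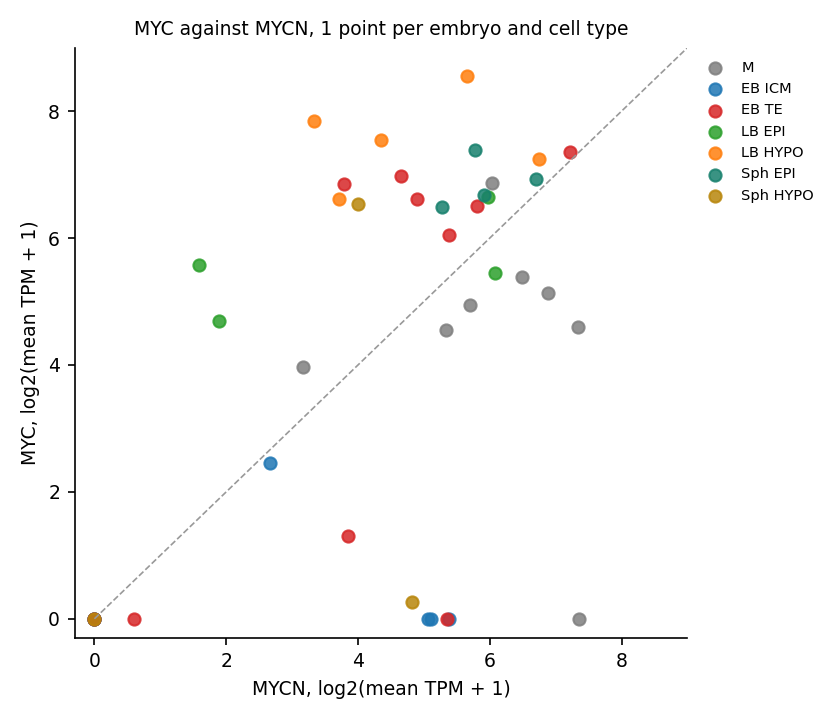
Mean TPM over the cells of an embryo, as log2(mean TPM + 1), for MYCN (horizontal axis) and MYC (vertical axis), with 1 point per embryo and cell type and equal values on the dashed line. Most M embryos lie below the line, all LB HYPO and Sph EPI embryos above it, and 5 sums without a count of either gene overlap at the origin.

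The ICM was then compared with TE, its sister lineage of the early blastocyst. Of 14721 genes, 0.754% were called in this comparison at an adjusted p under 0.05 by edgeR's quasi-likelihood test, which gives all adjusted p-values below, and neither member was among them. MYC had a log2 fold change of -7.42 ± 2.06 (SE) in ICM over TE, with an adjusted p of 0.0971 in edgeR. In sums of this kind, fewer cells with a transcript and less RNA per cell cannot be told apart. The ranges overlapped, because 3 TE embryos were also at 0. Of the 7 embryos with cells of both kinds, TE was higher in 5, ICM in 1 (AF) and both were at 0 in 1. Without the cell E6-ER2 (and AP-ER2 of the LB stage) the log2 fold change of MYC was -7.55 with an adjusted p of 0.0533 in edgeR. LIN28A had a log2 fold change of -2.47 ± 1.56 (SE) with an adjusted p of 0.515 in edgeR, and -2.65 with 0.364 without that cell. Without TE embryo AG, a single cell, the log2 fold change of LIN28A was -1.16.

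Against the morula, MYC was lower in the ICM. The log2 fold change of M over ICM was 6.37 ± 1.67 (SE), with an adjusted p of 0.0485 in edgeR, in a comparison that called 2.45% of genes. Pooled over embryos, MYC made up 43.8 CPM in M and 0.741 CPM in ICM. The size of every MYC difference from the ICM rests on the 40 counts of embryo AF, and the other 6 embryos had 0. The ranges overlapped through M embryo V. This call was at the edge of the threshold: it was lost without any 1 of 13 of the 15 embryos, with adjusted p-values of up to 0.0872 in edgeR, and held without ICM embryo AF or M embryo V. The sample titles carry 8 different SLX numbers, read here as library pools, though no label says what they are. Many embryos have cells in both the first 4 and the last 4 pools, so these sets are not independent. Within the first 4 pools by number the log2 fold change was 8.75 with an adjusted p of 0.0833, and within the last 4 it was 5.91 with 0.184, both by edgeR. LIN28A did not pass in this comparison (log2 fold change 1.33 ± 1.13, SE, adjusted p of 0.584 in edgeR).

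Between M and TE neither member passed. The comparison called 0.808% of genes, and the log2 fold change of M over TE was -1.03 ± 1.20 (SE) for MYC and -1.14 ± 1.17 (SE) for LIN28A, with adjusted p-values of 0.798 and 0.738 in edgeR. For LIN28A the sign rested on TE embryo AG, and without it the log2 fold change was 0.26.

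Along the pluripotent lineage MYC was higher in the EPI than in the ICM. In ICM over LB EPI its log2 fold change was -7.10 ± 1.79 (SE), with an adjusted p of 0.0458 in edgeR, where 2.91% of genes were called. No ICM embryo reached the lowest LB EPI embryo. This call too was lost without any 1 of 10 of the 11 embryos, at adjusted p-values of up to 0.0909 in edgeR, and held without AF. Within the first 4 pools it was -9.32 with an adjusted p of 0.0596 and within the last 4 it was -6.68 with 0.144, both by edgeR. LIN28A had a log2 fold change of -1.18 ± 1.69 (SE) and an adjusted p of 0.827 in edgeR, with overlapping ranges.

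MYC was also higher in Sph EPI than in ICM. The log2 fold change was -8.31 ± 1.57 (SE), with an adjusted p of 0.00529 in edgeR, where 6.73% of genes were called, and the call held without any 1 of the 11 embryos. It also held within the first 4 pools and the last 4, at adjusted p-values of 0.000186 and 0.0326 in edgeR, though these sets share embryos. LIN28A had a log2 fold change of -1.96 ± 1.35 (SE) and an adjusted p of 0.409 in edgeR.

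Between LB EPI and Sph EPI, a comparison that called 0.156% of genes, neither member passed. MYC had a log2 fold change of -1.19 ± 0.45 (SE), with an adjusted p of 0.359 in edgeR, and the level of the highest LB embryo was 0.0092 above that of the lowest Sph embryo. LIN28A had a log2 fold change of -0.75 ± 1.28 (SE) and an adjusted p of 0.918 in edgeR.

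Set together, M and ICM had a lower mean MYC level than LB and Sph EPI, and this rested largely on the ICM. The mean level was 0.31 in ICM and 4.78 in M, against 6.13 in LB EPI and 7.44 in Sph EPI. M embryos ran from 0 to 7.33 and overlapped both EPI groups, and M alone was not tested against EPI. The log2 fold change of the mean of M and ICM over the mean of both EPI groups was -4.46 ± 0.88 (SE), with an adjusted p of 0.00082 in edgeR. The call held without any 1 of the 23 embryos and within both sets of pools, which share embryos. This comparison called 21.8% of genes, so a call in it is not particular to MYC. LIN28A had a log2 fold change of -0.83 ± 0.87 (SE) and an adjusted p of 0.596 in edgeR. The ICM sums are shared by these comparisons, which are therefore not independent of each other.

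Toward the hypoblast, MYC was higher in LB HYPO than in ICM. The log2 fold change of ICM over LB HYPO was -8.87 ± 1.44 (SE), with an adjusted p of 0.00213 in edgeR, where 2.1% of genes were called. The ranges did not overlap, and the call held without any 1 of the 12 embryos, and within the first 4 pools. Within the last 4 pools the log2 fold change was -7.42 with an adjusted p of 0.157 in edgeR. ICM cells were mostly male and LB HYPO cells mostly female, and the part of sex was not tested. LIN28A was also separate between the groups, but narrowly. Its highest ICM embryo was at a level of 4.03 and its lowest LB HYPO embryo at 4.11. Its log2 fold change of -2.38 ± 1.31 (SE) did not pass, with an adjusted p of 0.319 in edgeR.

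**Figure D4:**
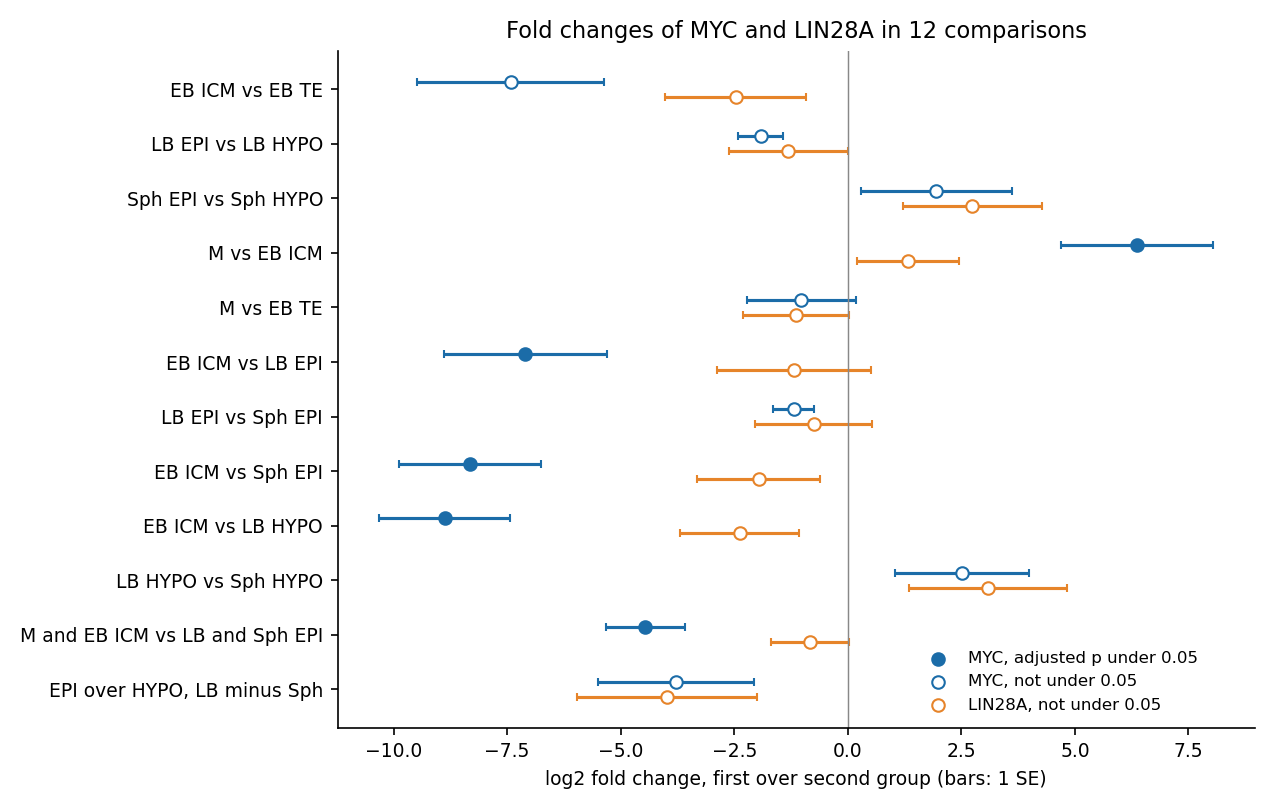
Log2 fold change of the group named first over the group named second (horizontal axis) for MYC and LIN28A in the 12 comparisons (vertical axis), with bars of 1 SE. Filled points have an adjusted p under 0.05 in edgeR: MYC passes in 5 comparisons and LIN28A in 0.

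EPI and HYPO, the lineages that arise from the ICM, were compared within each stage. In the late blastocyst, where 1.92% of genes were called, MYC had a log2 fold change of EPI over HYPO of -1.92 ± 0.50 (SE), with an adjusted p of 0.0770 in edgeR. The groups did not overlap. Within the first 4 pools it was -2.65, within the last 4 pools -0.76, and neither passed. LIN28A had a log2 fold change of -1.31 ± 1.30 (SE) and an adjusted p of 0.687 in edgeR.

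In the spherical embryo the fitted MYC difference had the other sign. Here 1.13% of genes were called, and the log2 fold change of EPI over HYPO was 1.95 ± 1.66 (SE) for MYC and 2.74 ± 1.53 (SE) for LIN28A, with adjusted p-values of 0.593 and 0.408 in edgeR. Embryo F set the MYC value: without its HYPO sum 1 MYC count was left in the group and the call passed at an adjusted p of 0.00888 in edgeR. Leaving out that sum also raised the number of all genes called from 167 to 583, so the gain is not particular to MYC. The HYPO cells of this stage had TE marker TPM that summed to 29155 in embryo C, 17624 in E and 43810 in F, against 2808 to 9012 in Sph EPI and 1743 to 2704 in LB HYPO. KRT8 and KRT18, keratins of simple epithelia, made up most of it, while the TE factors GATA2 and CDX2 were over TPM 1 in 0 of 12 cells and GATA3 in 9. All 6 matched hypoblast markers had a mean over TPM 1 in C and F and 4 did in E. The 6 matched pluripotency markers summed to a TPM of 182 in C, 21.7 in E and 417 in F, against 903 to 1240 in Sph EPI and 51.5 to 195 in LB HYPO. Both sums were thus highest in F, the HYPO sum with MYC. Of these markers OTX2 was over TPM 1 in 7 of 12 Sph HYPO cells, NODAL in 6 and DNMT3B in 9, and PRDM14, SALL2 and SFRP2 in 0. The part of the epithelial and pluripotency genes in the MYC and LIN28A values was not tested.

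In the embryos that had cells of both lineages, MYC was higher in HYPO in all 3 LB pairs and higher in EPI in all 3 Sph pairs. Genes in general leaned the same way: the median over all genes was 0.57 for Sph EPI over HYPO and -0.43 for the interaction (log2). The share of all genes with such a pattern of pairs was not counted. EPI minus HYPO was -0.91 in embryo AN, -0.89 in AO and -3.50 in AP at the LB stage. At the Sph stage it was 7.40 in C, 6.90 in E and 0.97 in F. For MYCN the 3 LB pairs ran from -4.53 to -0.72 and the 3 Sph pairs from 1.84 to 6.61. LIN28A was higher in EPI in all 3 Sph pairs, by 1.44 to 4.22, and mixed at LB, where EPI minus HYPO was -4.49 in AN, -0.90 in AO and 0.00 in AP.

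**Figure D5:**
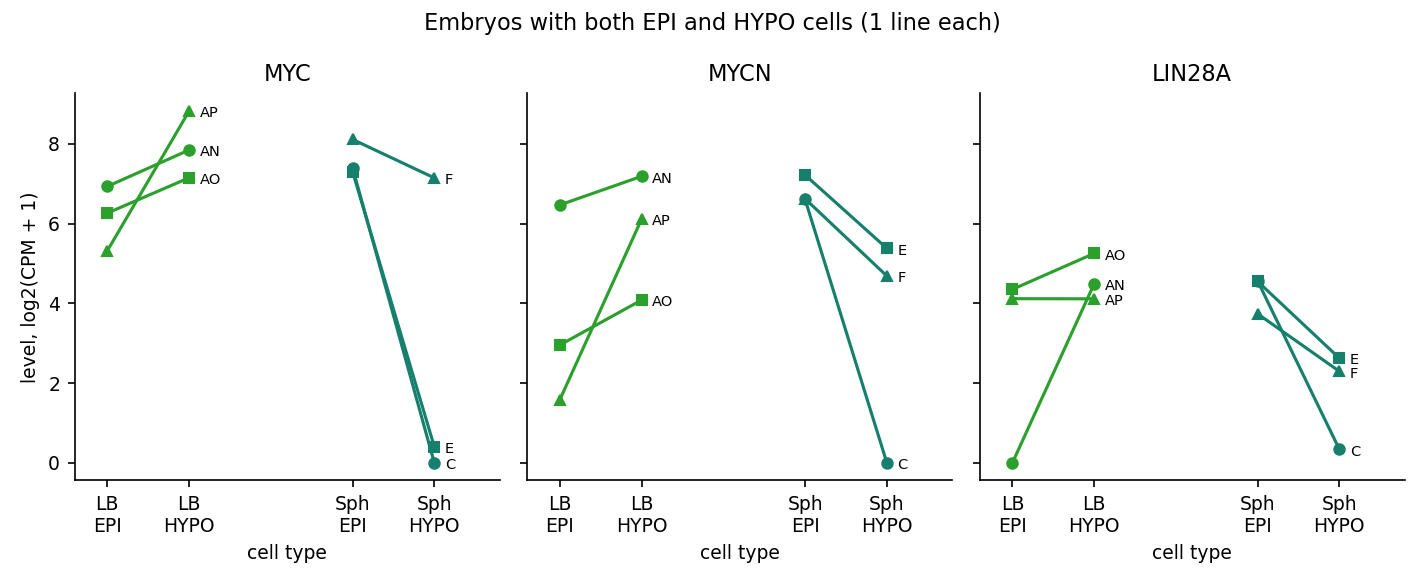
Level, log2(CPM + 1) on the vertical axis, of MYC, MYCN and LIN28A in EPI and HYPO of the same embryo, with 1 line per embryo and its letters at the HYPO end. MYC and MYCN lines run upward from EPI to HYPO in all 3 LB embryos and downward in all 3 Sph embryos, and the interaction test of this was not passed.

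The difference between the stages was tested as an interaction, which called 0.0408% of genes. It was -3.78 ± 1.72 (SE, log2) for MYC, with a p of 0.0408 before and 0.431 after adjustment in edgeR, and -3.97 ± 1.98 (SE) for LIN28A, with an adjusted p of 0.484 in edgeR. The opposite directions of MYC therefore did not pass the test of their difference. Without the HYPO sum of embryo F, which leaves 1 MYC count in Sph HYPO, the adjusted p for MYC was 0.000702 in edgeR. The number of all genes called in the interaction then rose from 6 to 165.

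Between LB HYPO and Sph HYPO, where 0.163% of genes were called, both members were higher in every LB embryo than in any Sph embryo. As for the other groups without overlap above, the share of all genes separated in this way was not counted. LB HYPO cells were mostly female and Sph HYPO cells all male, and the part of sex was not tested. For MYC the margin in level was 0.0031, between LB embryo AO and Sph embryo F. The log2 fold changes of LB over Sph HYPO were 2.51 ± 1.47 (SE) for MYC and 3.09 ± 1.74 (SE) for LIN28A, and neither passed, with adjusted p-values of 0.519 and 0.517 in edgeR. LIN28A was called by edgeR in 0 of the 12 comparisons made, with 0 unadjusted p-values under 0.05, while DESeq2 and limma on TPM each called it in 2.

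The wider network was described by 6 lists of genes known to act with or under MYC and LIN28A, of which 65 entries were tested. Of these, 0 were called in ICM against TE, LB EPI against LB HYPO, M against TE, ICM against LB EPI, ICM against LB HYPO, LB HYPO against Sph HYPO and the interaction by edgeR. In these 7 comparisons 9 to 14 entries had an unadjusted p under 0.05, 1 to 5 were called by DESeq2 and 0 to 3 by limma. In M and ICM against EPI, 19 were called (29.2% of the entries, beside 21.8% of all genes), and in ICM against Sph EPI 7 were (10.8%, beside 6.73%).

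Of 14 tested members of the MYC family and its partners, 3 were called, all in M and ICM against EPI, with 1 higher in the early cells and 2 lower. That comparison called 21.8% of all genes, so 3 of 14 is near the share over all genes. The list's median log2 fold change was -0.35, against -0.18 over all genes. MLXIP, a glucose-sensing relative of the network, was higher in M and ICM (log2 fold change 2.79, adjusted p of 0.0163 in edgeR). RUVBL1, an ATPase of chromatin complexes that MYC recruits, was lower (-1.33, adjusted p of 0.00385 in edgeR). MXD4, an antagonist that competes for MAX, was also called lower (adjusted p of 0.0283 in edgeR), but its counts were 1 in M, 3 in ICM, 72 in LB EPI and 10 in Sph EPI, so no size is given.

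Of 10 tested genes of MYC turnover and upstream control, 4 were called in M and ICM against EPI, beside 21.8% of all genes. All 4 had a lower mean over M and ICM than over both EPI groups, and the list median was -0.50. USP28, a deubiquitinase that stabilizes MYC, had a log2 fold change of -4.02 (adjusted p of 0.00228 in edgeR), from 12.2 and 20 pooled CPM in M and ICM to 274 and 244 in LB and Sph EPI. HNRNPK, an RNA-binding protein, had -0.83 (adjusted p of 0.00302) and PIM1, a kinase that acts with MYC, -1.34 (adjusted p of 0.0208), both by edgeR. For PIM1 this rested on ICM, with a level of 4.92, and Sph EPI, at 7.74, while M was at 6.56 and LB EPI at 6.81. LEF1, an effector of Wnt signalling, was called (adjusted p of 0.0188 in edgeR) on 7 counts in M and 0 in ICM, so no size is given. It had counts in 1 of 4 LB EPI and 2 of 4 Sph EPI embryos. PIM1 was lower in ICM than in Sph EPI too (-2.45, adjusted p of 0.0385 in edgeR).

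STAT3, the transducer of LIF-type signals, went the other way. It was higher in ICM than in Sph EPI (log2 fold change 2.87, adjusted p of 0.00373 in edgeR) and higher in ICM than in M (M over ICM -2.59, adjusted p of 0.00343 in edgeR), and its pooled CPM was 643 in ICM against 99.1 in M and 66.5 in Sph EPI. GSK3B, a kinase that marks MYC for degradation, was lower in Sph EPI than in Sph HYPO (-2.39, adjusted p of 0.0236 in edgeR).

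Of 21 tested growth targets of MYC, 6 were called in M and ICM against EPI, beside 21.8% of all genes. Of the 6, 5 had a lower mean over M and ICM than over LB and Sph EPI and 1 a higher one, at a list median of -0.13. In ICM against Sph EPI, beside 6.73% of all genes, 4 of the targets were called, all lower in ICM, at a list median of -0.72 against -0.30 over all genes. These were the nucleolar genes NPM1 (log2 fold change -1.31, adjusted p of 2.83e-05) and NOP56 (-1.22, adjusted p of 0.00457), the translation factor EIF4A1 (-0.99, adjusted p of 0.000254) and the glycolytic enzyme ENO1 (-1.75, adjusted p of 0.00873), all by edgeR. NPM1 was at 11.8 ± 0.26 (SD, n = 7) in ICM and 13.1 ± 0.16 (SD, n = 4) in Sph EPI on the log2(CPM + 1) scale. EIF4A1 was lower in LB EPI than in Sph EPI as well (-1.12, adjusted p of 0.00805 in edgeR).

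The 5 targets with a lower mean over M and ICM came from a comparison that shares its sums with the last. NPM1 had a log2 fold change of -0.78 (adjusted p of 5.01e-06), ENO1 had -1.14 (adjusted p of 0.00191), NOP56 -0.63 (adjusted p of 0.00485) and EIF4A1 -0.28 (adjusted p of 0.0444), all by edgeR. For EIF4A1 the negative sign rested on Sph EPI: its level was 11.3 in M and 11.1 in ICM, against 10.9 in LB EPI and 12.1 in Sph EPI. NOP56 was at 10.2 in both M and LB EPI. LDHA, lactate dehydrogenase, had -1.67 (adjusted p of 0.0422 in edgeR). For LDHA this rested largely on M, at a level of 6.45, where 7 of 8 embryos had a count. ICM was at 8.61, LB EPI at 9.33 and Sph EPI at 9.74, and pooled CPM was 615 in ICM and 638 in LB EPI. HK2, a hexokinase at the entry of glycolysis, was higher in M and ICM (adjusted p of 0.0165 in edgeR), with 15.8 and 35.6 pooled CPM there, 0.0382 in LB EPI from 2 counts and 11.3 in Sph EPI. NCL, nucleolin, was higher in M than in ICM (1.28, adjusted p of 0.0218 in edgeR). None of the 3 tested genes that MYC is known to repress (CDKN2C, GADD45B and NDRG1) was called by edgeR in any of the 12 comparisons. Over these comparisons they gave 10 unadjusted p-values under 0.05, 2 calls by DESeq2 and 2 by limma.

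Of 9 tested genes of LIN28 and let-7 processing, TUT4 was called in 3 comparisons. TUT4 is the uridylyl transferase that LIN28A recruits to precursor let-7. It had 0 counts in all 7 ICM embryos and in all 3 Sph HYPO embryos, and 4966 counts over the 4 Sph EPI embryos, each of which had it. Against a floor of 3 counts over the group, Sph EPI was at least 760-fold higher than ICM and at least 367-fold higher than Sph HYPO, and the adjusted p-values were 0.00285 and 0.0320 in edgeR. It was found in 3 of 8 M embryos, 1 of 10 TE, 2 of 4 LB EPI and 1 of 5 LB HYPO embryos. TUT4 was also called lower in M and ICM than in EPI (adjusted p of 0.00465 in edgeR), as was MSI1, an RNA-binding protein that works with LIN28A (adjusted p of 0.0106), on 2 counts in M and 9 in ICM. In M and ICM against EPI 21.8% of all genes were called, and the list's median log2 fold change was -0.15, against -0.18 over all genes.

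Of 8 tested let-7 targets and genes of the growth axis, 4 were called in M and ICM against EPI and 0 in the other 11 comparisons by edgeR, where 12 unadjusted p-values were under 0.05 and DESeq2 made 7 calls. In M and ICM against EPI 21.8% of all genes were called, and the list median was 0.81, against -0.18 over all genes. IGF2BP1, an RNA-binding protein of the oncofetal programme (log2 fold change 0.85, adjusted p of 0.0292), and the ribosomal kinase RPS6KB1 (0.76, adjusted p of 0.0468) had a higher mean over M and ICM than over both EPI groups, both by edgeR. For IGF2BP1 this rested on LB EPI, with a level of 5.96, while Sph EPI was at 7.73, beside 7.65 in M and 7.82 in ICM. EIF4EBP1, a brake on translation, was lower (-1.07, adjusted p of 0.0476 in edgeR).

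Of 9411 tested genes with a symbol, the 5 whose levels over the 41 sums were most like MYC included AMOTL2, a regulator of Hippo signalling (Pearson r = 0.72), RUFY1, an endosomal protein (0.72), PRMT1, an arginine methyltransferase (0.71), and the RNA-binding protein SNU13 (0.70). The mean AMOTL2 level was 0.60 in ICM and 5.92 in LB HYPO. The 5 most like LIN28A included RCAN3 (0.72), WDR83 (0.67), MND1, a factor of meiotic recombination (0.66), and ATXN2L (0.66). The mean RCAN3 level was 2.75 in ICM, 5.22 in LB HYPO and 1.34 in Sph HYPO. These correlations describe sums that share embryos and depth, and no test was made of them.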

How the data were processed

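Reads of 220 Smart-seq2 cells were trimmed with scythe and sickle, aligned with HISAT2 2.1.0 to the pig genome (Sscrofa10.2) and counted on Ensembl genes with HTSeq by the authors, who dropped cells of low depth, of high mitochondrial content or lying apart in t-SNE. They deposited raw counts for each cell and TPM values, which the authors made from these counts. Smart-seq2 libraries carry no molecular identifiers and do not mark strand, so reads of overlapping antisense genes cannot be told apart, and intervals and floors cover counting error only. Gene names were looked up by Ensembl identifier, and no sequences were used here.

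Counts were added up per embryo and cell type. The filter kept genes that passed TPM 1 in 3 or more cells, sums were normalized with TMM and each comparison was fitted with glmQLFit and glmQLFTest in edgeR 4.0.16 (R 4.3.3), with Benjamini-Hochberg adjustment over all 14721 genes and a threshold of 0.05. SE is the absolute log2 fold change over the root of its F statistic. The study tested single cells, and sums were used here because cells of 1 embryo are not replicates. The p-values measure the spread between sums, which holds differences between cells and in cell number as well as between embryos, and 6 of the 41 sums are single cells. In the main fits sums of the same embryo were treated as independent.

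Sums of the same embryo come from the same animal and therefore pair. Over 4959 genes their deviations from the group means had correlations of -0.04 to 0.14 (7 ICM and TE pairs), 0.00 to 0.09 (3 LB pairs) and 0.01 to 0.25 (3 Sph pairs). The embryo entered as a replicate block among the alternatives.

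The genes named are MYC, LIN28A and MYCN whatever their test, every list member with an adjusted p under 0.05 in a comparison (the 6 smallest p where more passed), and the 5 tested genes most correlated with MYC and with LIN28A. Some genes that this rule names are not reported here. MYC, LIN28A and the lists were chosen with earlier results of these data known. Alternatives were DESeq2 1.42.0, limma 3.58.1 on mean log2(TPM + 1) with a pseudocount of 1, no TMM, no filter, filterByExpr, sums of at least 2 cells, removal of cells whose embryo is less certain, the M cell without an embryo as an embryo, 1 model of all cell types, the first or last 4 pools, and leaving out each embryo. On simulated data the fit recovered 25.5% of 200 genes changed 8-fold in ICM against TE, 24% in LB EPI against HYPO, 28.5% in Sph EPI against HYPO and 25.5% in ICM against LB EPI, with 4 to 10 false calls. The changed genes were drawn from those with a mean CPM over 10. The recovery therefore does not describe genes near 0 in a group, such as MYC in ICM. Tables and plots used Python 3.11.15, pandas 2.3.3, numpy 2.4.6, scipy 1.17.1 and matplotlib 3.10.9.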

Additional observations from a re-analysis of the deposited data

Results flagged for a closer look

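Among embryos of a cell type, Dixon's ratio marked 4 levels as far from the others: MYC at 0 in M embryo V, MYC at 2.20 in ICM embryo AF, LIN28A at 5.61 in M embryo ER and LIN28A at 3.74 in Sph EPI embryo F, all as log2(CPM + 1). Chance marks about 1 in 20 groups, and with 6 of the 7 ICM embryos at 0 any count in the other would be marked. V held 2 cells, AF 4, ER 4 and F 19. All cells of ER came from the last pool by number, and the letters ER also occur in the identifiers E6-ER2 and AP-ER2.

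MYC was lower in EPI than in HYPO of the same embryo in 3 of 3 LB embryos and higher in 3 of 3 Sph embryos. The interaction was -3.78 on the log2 scale, with an adjusted p of 0.431 in edgeR, and its median over all genes was -0.43.

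The 1 M cell that has no embryo in its identifier was left out of the sums and held 32 MYC counts, 89 LIN28A counts and 574 MYCN counts. Its TPM was 9.02 for MYC, 92.9 for LIN28A and 140 for MYCN.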

How the results depend on the processing

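MYC was called in ICM against Sph EPI under all 21 alternatives, in M and ICM against EPI under all 34, and in ICM against LB HYPO under 21 of 22, the other being the last 4 pools (log2 fold change -7.42). The calls at the edge were lost more often. In M against ICM the log2 fold change was 5.99 with sums of at least 2 cells, 8.75 in the first 4 pools, where the ICM held 1 MYC count, and 5.91 in the last 4, and the call was lost in each. It ran from 5.85 to 11.91 when single embryos were left out and was called only without ICM embryo AF or M embryo V. In ICM against LB EPI the values were -6.65, -9.32 and -6.68 under the same 3 settings, and -12.49 to -6.81 without single embryos, where the call was kept only without AF. Without AF the ICM is at 0 counts, so that end of each range is no bound.

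MYC was called in ICM against TE by DESeq2 (-7.64) and in 1 model of all cell types (-7.40), and in LB EPI against HYPO by DESeq2 (-1.81). Without the HYPO sum of Sph embryo F it was called in 3 comparisons that use Sph HYPO: the fitted values ran from 1.37 to 10.20 in Sph EPI against HYPO, from 1.91 to 10.70 in LB against Sph HYPO and from -12.01 to -3.17 in the interaction when single embryos were left out. Without that sum the number of all genes called rose too, from 167 to 583, from 24 to 110 and from 6 to 165 in the same order. DESeq2 gave no adjusted p for MYC in Sph EPI against HYPO. LIN28A was called in Sph EPI against HYPO (2.61) and LB against Sph HYPO (3.02) by DESeq2, and in ICM against Sph EPI (-2.85) and against LB HYPO (-3.59) by limma on mean log2(TPM + 1). Its sign in M against TE turned under DESeq2 (0.30) and without TE embryo AG (range -1.72 to 0.26).

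Pairing the sums of the same embryo as a replicate block changed no call: the MYC values were -10.65 in ICM against TE, -1.75 and 7.55 in EPI against HYPO at LB and Sph and -9.07 for the interaction, and those of LIN28A were -1.83, -2.03, 3.10 and -5.07, at adjusted p-values of 0.17 or more in edgeR.

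The number of genes called moved far more, from 111 to between 9 and 865 in ICM against TE, from 283 to between 20 and 1369 in LB EPI against HYPO, from 167 to between 78 and 1446 in Sph EPI against HYPO, from 361 to between 38 and 1205 in M against ICM, from 119 to between 20 and 894 in M against TE, and from 428 to between 123 and 1370 in ICM against LB EPI. It moved from 23 to between 7 and 828 in LB against Sph EPI, from 990 to between 374 and 2050 in ICM against Sph EPI, from 309 to between 71 and 1097 in ICM against LB HYPO, from 24 to between 17 and 336 in LB against Sph HYPO, from 3202 to between 1979 and 3280 in M and ICM against EPI, and from 6 to between 0 and 540 for the interaction. The interaction called 0 genes by edgeR in the last 4 pools and without the EPI sum of Sph embryo C or D, where 906, 1339 and 1330 genes had an unadjusted p under 0.05. Sums of 1 to 19 cells limit the precision of every level, and 6 of them are single cells.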
